A study of Equus caballus with 22 samples.

Results

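Genes whose 3′ ends lie close together were examined in articular cartilage and in synovium, the lining of the joint, of young and old horses; both tissues were taken from the metacarpophalangeal (fetlock) joint. In each tissue's table, a site was kept when at least 6 of 12 cartilage libraries, or at least 5 of 10 synovium libraries, held 10 or more counts on it, on chromosomes 1 to 31. A gene was taken as tightly clustered when it had 2 or more kept sites and all of them fell within a span of 500 nt, from the first base of one to the last base of another. This gave 215 genes with 434 sites in cartilage, out of 2854 genes with at least 2 kept sites (7.53%) and 7006 genes with any kept site (3.07%). Synovium also gave 215 genes, with 431 sites, out of 5116 genes with at least 2 kept sites (4.20%) and 9943 with any (2.16%). The lists were made separately and shared 59 genes, 27.4% of each list.

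The libraries were QuantSeq-Reverse libraries of total RNA, in which a read is taken here to mark the 3′ end of a polyadenylated transcript. Whether each listed site is a true transcript end was not checked. There were 6 young and 6 old cartilage libraries and 5 young and 5 old synovium libraries, all labelled WT and batch 1, from snap-frozen tissue, with age given only as young or old. The labels of all 22 also mention a 4 hour treatment of cells with 4sU, which all groups share and which does not go with frozen tissue. They do not say whether libraries come from separate horses or whether cartilage and synovium come from the same ones, so p-values measure only the spread between these libraries.

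A 3′ end is made when a cleavage complex recognises a hexamer signal in the nascent RNA, cuts downstream of it and hands the end to a poly(A) polymerase. Many genes use more than one such end, which is called alternative polyadenylation. Ends far apart change how much of the 3′ untranslated region, with its sites for microRNAs and RNA-binding proteins, a transcript carries, whereas ends close together change little of it. The site farther along the transcript is called distal here, and the distal share is its part of the counts at a gene's clustered sites. Genes are given by their Ensembl identifiers, since the files used here do not pair them with symbols; for that reason roles, pathway lists and the defining markers of cartilage and synovium were not checked, and no sequence was read.

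Total counts ran from 2132898 to 3167402 per cartilage library and from 3499770 to 5664167 per synovium library. The clustered sites held 2.53% ± 0.159 (SD, n = 6) of a young cartilage library's counts and 2.82% ± 0.233 (SD, n = 6) of an old one's. In synovium they held 2.15% ± 0.115 (SD, n = 5) in young and 2.06% ± 0.158 (SD, n = 5) in the old. All 215 synovium genes had counts in every synovium library. In cartilage, between 0 and 51 of the 215 genes were at 0 counts in a library, and the library old cartilage 2 was the one at 51, with the next highest at 16.

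The clusters were nearly always pairs. In cartilage 211 genes had 2 sites and 4 had 3, and in synovium 214 had 2 and 1 had 3. The span was 368 nt at the median in cartilage (202 to 500) and 400 nt in synovium (224 to 500). Neighbouring sites had their 3′ boundaries 222 nt apart at the median in cartilage (106 to 392) and 238 nt in synovium (104 to 380). The interval left between 2 neighbours was often short: under 50 nt in 66 of 219 pairs in cartilage and 89 of 216 in synovium, with 1 and 3 pairs that abutted. A deposited site was itself an interval of 120.5 nt at the median in cartilage and 133 nt in synovium, against 122 and 140 nt over all kept sites. Where 2 intervals abut, one broad 3′ end region divided in 2 and a pair of separate ends cannot be told apart from these tables.

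Each gene had a median of 6 listed sites in cartilage and 9 in synovium. The clustered sites held 94.3% and 97.2% of the gene's counts at the median, and as little as 30.2% and 38.5%; since the rule leaves out genes with a kept site farther away, high values follow in part from it. Members lay on both strands in near equal number, 105 plus and 110 minus in cartilage and 110 plus and 105 minus in synovium. Chromosome 1 held most of them in each tissue, 22 genes or 10.2%, against 8.25% and 8.29% of all genes with a kept site. At the edge of the rule, the cartilage genes just inside had spans of 500, 500 and 499 nt and pooled distal shares of 68.9%, 50.5% and 10.2%. Those just outside had spans of 507, 508 and 509 nt and shares of 86.7%, 56.6% and 25.7%. In synovium the genes just inside (500, 500 and 499 nt) had shares of 8.05%, 3.65% and 71.3%, and those just outside (501, 502 and 502 nt) had 16.7%, 90.7% and 37.9%.

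Many of the genes clustered in one tissue were not clustered in the other. Of the 215 cartilage genes, 80 (37.2%) kept 2 or more sites over a wider span in synovium, 59 were clustered there too, 35 kept 1 site and 41 kept none. Of the 215 synovium genes, 13 (6.05%) had a wider span in cartilage, 59 were clustered, 79 kept 1 site and 64 kept none. The synovium libraries were deeper, and its table lists 262643 sites against 138134 in cartilage. The part of depth in these numbers was not tested.

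No one end dominated the clusters as a class. With all libraries pooled, the distal share had a median of 44.8% in cartilage and 52.8% in synovium. The distal site held most of the counts in 92 of 215 genes in cartilage and in 111 of 215 in synovium. Shares between 25% and 75% were found in 122 and 92 genes, shares under 10% in 19 and 24, and shares over 90% in 14 and 26. Among genes with exactly 2 sites, the distal site was the major one in 43.1% of the 211 clustered cartilage genes and 38.7% of 1426 genes with a wider span. In synovium it was the major one in 51.9% of 214 clustered and 40.1% of 2206 wider genes. The count filter and the intervals that fix membership also bear on these shares, so the difference is given as a description without a test.

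The genes with the most counts were almost all one-sided. The rule fixes part of this, since each site had to pass the count filter. A site with a very small share passes only in a gene with many counts. In cartilage, ENSECAG00000004107 (EquCab3.0, chr1:60603147-60603563, minus strand) stood highest in CPM, the gene's counts scaled for library size. Its CPM in young libraries was 2456 at the lowest, 3286 at the median and 5939 at the highest, and in old libraries 2451, 5605 and 8353. Its distal site, at chr1:60603147-60603319, took 0.141% ± 0.0923 (SD, n = 6) of the counts in young and 0.0913% ± 0.131 (SD, n = 6) in the old. The young and old ranges overlapped in both measures, and the proximal site held nearly all counts in each of the 12 libraries. In synovium, ENSECAG00000020416 (chr8:23894208-23894606, minus strand) stood highest, with 1677, 1493, 2051, 2457 and 1921 CPM in the young libraries and 1579, 1206, 2316, 1547 and 1706 in the old. Its distal share was 0.333% ± 0.0898 (SD, n = 5) in young and 0.314% ± 0.103 (SD, n = 5) in the old.

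The opposite preference occurred as well. ENSECAG00000012317 (chr10:7001177-7001614, minus strand) used its distal site for 99.6% ± 0.114 (SD, n = 5) of counts in young and 99.3% ± 0.265 (SD, n = 5) in old synovium. ENSECAG00000043666 (chr16:40062389-40062699, plus strand) was among the 10 genes with the highest CPM in each tissue and favoured its distal site in all 22 libraries. That distal share was 93.4% ± 5.17 (SD, n = 6) in young and 97.0% ± 1.13 (SD, n = 6) in old cartilage, and 94.5% ± 1.48 (SD, n = 5) in young and 93.2% ± 1.45 (SD, n = 5) in old synovium. Of the 10 genes with the highest CPM, the pooled preference was proximal in 7 of 10 in cartilage and in 6 of 10 in synovium, where 2 of the 10 carry the same reads on opposite strands (ENSECAG00000019465 and ENSECAG00000002350). The other proximal ones in cartilage, ENSECAG00000017618, ENSECAG00000009383, ENSECAG00000000474, ENSECAG00000003002, ENSECAG00000020535 and ENSECAG00000023868, had mean distal shares from 0.871% to 11.0% in young and 0.879% to 7.42% in old libraries. ENSECAG00000017962 (chr16:8295070-8295456, plus strand) was the most balanced of the cartilage genes of high CPM. Its distal share was 59.9% at the lowest, 64.6% at the median and 76.6% at the highest in young libraries and 71.7%, 80.8% and 85.1% in old ones, so the ages overlapped.

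Genes with 3 clustered sites gave further patterns. In ENSECAG00000028699 (cartilage, chr7:46659496-46659996, minus strand), the distal of the 3 sites took 46.2% to 56.8% of counts in the 6 young libraries. In the old libraries it took from 0% to 100%, with a median of 53.1%, and the 0% and 100% libraries were the 2 with its lowest levels, 54.2 and 26.6 CPM. ENSECAG00000015321 (cartilage, chr1:63152589-63153074, minus strand) had distal shares of 0% to 27.2% in young and 7.37% to 66.5% in old libraries. In ENSECAG00000011921, the synovium gene with 3 sites (chr11:6483579-6484076, minus strand), the distal share was 15.6% ± 3.90 (SD, n = 5) in young and 15.5% ± 5.87 (SD, n = 5) in the old. Its distal and most proximal sites had the same counts in every library as opposite-strand sites of ENSECAG00000016214. The gene behind those reads cannot be told. Each site of ENSECAG00000028699 was overlapped by an opposite-strand site of ENSECAG00000019690, with counts that were not identical.

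Ordered by the distance between the ends, the genes' preferences ran in opposite directions in the 2 tissues. In cartilage the distal site was the major one in 53.6% of 28 genes with boundaries up to 150 nt apart, 48% of 50 genes at 150 to 200 nt, 39.6% of 53 at 200 to 250 nt and 38.8% of 80 above 250 nt. In synovium the same classes gave 29.6% of 27, 43.9% of 41, 51.1% of 47 and 61.6% of 99 genes. These are descriptions over genes that share libraries, with no test. Synovium intervals were longer, with 101 genes whose distal site was over 150 nt long against 45 in cartilage, and the part of interval length in this pattern was not tested.

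**Figure D1:**
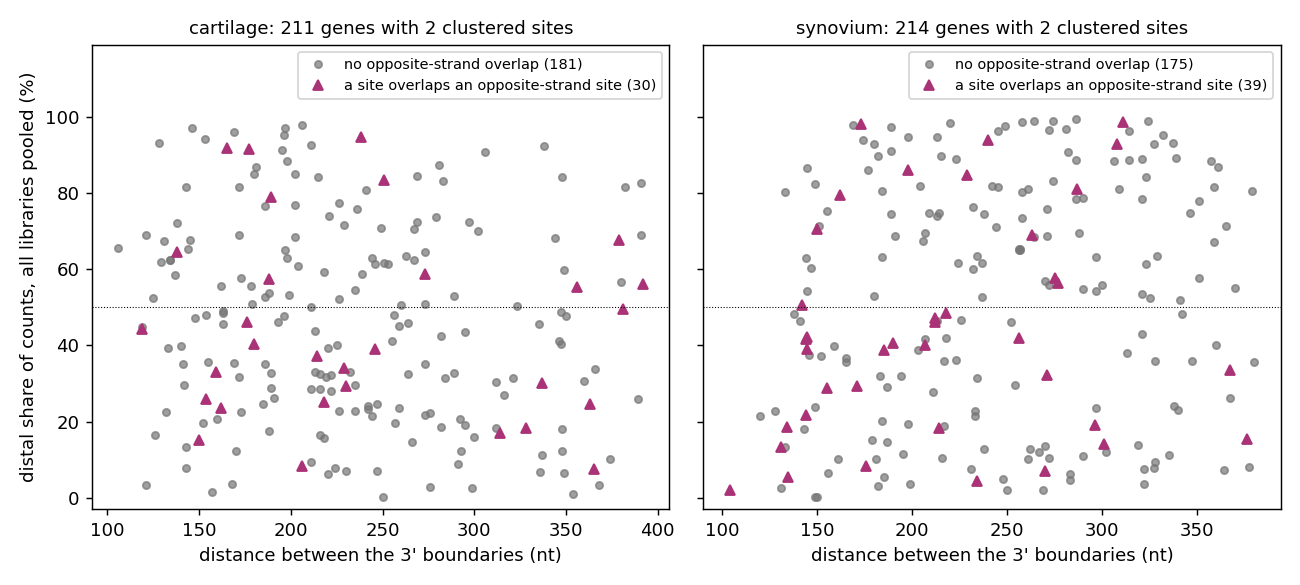
Distal share of counts with all libraries pooled (percent, vertical axis) against the distance between the 3′ boundaries of the 2 sites (nt, horizontal axis), 1 point per gene with 2 clustered sites, 211 genes in cartilage and 214 in synovium. Triangles mark genes with a site that overlaps a site on the opposite strand; shares vary widely at short and long distances in both tissues.

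Some clustered sites overlapped a site of a gene on the other strand, and many of those overlapping sites carried the same counts. Among all listed sites, kept or not, 347 opposite-strand pairs of intervals overlapped in cartilage and 1373 in synovium. Of these pairs, 57.3% and 47.6% carried the same counts in every library. Where the overlap covered over 75% of the longer interval, 63 of 64 cartilage pairs (98.4%) and 152 of 158 synovium pairs (96.2%) were identical in all libraries. The deposited counts at such pairs therefore hold the same reads for both genes, and reads from a gene and its antisense partner cannot be told apart.

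Such overlap was found at a larger share of the clustered sites than of all kept sites, which is given as a description with no test. It was found at 46 of 434 member sites (10.6%) in cartilage and 61 of 431 (14.2%) in synovium, against 3.14% and 4.98% of all kept sites. By gene it was 31 of 215 (14.4%) and 40 of 215 (18.6%), against 4.77% and 9.34% of genes with 2 sites over a wider span. Counts identical to the partner's in every library were found at 24 (5.53%) and 27 (6.26%) member sites, against 1.78% and 2.19% of all kept sites. At the others the counts differed, some widely, as at the proximal site of ENSECAG00000012750 in cartilage, with 1623 counts against 79. Some differed by little, as at the proximal site of ENSECAG00000023954 in cartilage, with 2379 counts against 2385. The plainest case was a pair of synovium members on chromosome 22, ENSECAG00000019465 (plus strand, chr22:35757429-35757719) and ENSECAG00000002350 (minus strand, chr22:35757463-35757687). Both sites of one had the same counts as both sites of the other in all 10 libraries, so that 1 set of reads gave ENSECAG00000019465 a distal share of 98.2% ± 0.313 and ENSECAG00000002350 one of 1.79% ± 0.313 in young synovium (SD, n = 5). Which of the 2 genes the reads came from cannot be told from the table. Each tissue had 2 pairs of members with the same counts at all their sites, so 1 set of reads entered the list as 2 genes. The others were ENSECAG00000021651 and ENSECAG00000025134 in synovium and ENSECAG00000024982 and ENSECAG00000025015 in cartilage, which overlap on opposite strands, and ENSECAG00000005741 and ENSECAG00000034546 in cartilage, which do not overlap. That last pair lies on the minus strand at chr1:142719078-142719384 and chr1:143126775-143127081, and its counts are uncertain as to gene. Counts the same as at a site elsewhere, without overlap, were found at 6 cartilage member sites in 3 genes and at 0 in synovium.

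Distal shares varied far more between cartilage libraries than between synovium libraries. The SD of a gene's distal share over libraries had a median of 24.0 percentage points in cartilage, where counting error alone gives 4.40, and of 7.02 in synovium, where counting error gives 3.22. The SD was more than 2 times the counting error in 210 of 215 cartilage genes and 121 of 215 synovium genes. The site with most counts was the same one in every library with counts for 63 of 215 genes in cartilage and 149 of 215 in synovium. Genes with 2 sites over a wider span had a median SD of 24.0 points in cartilage and 9.11 in synovium, so the spread in cartilage was as wide there. Where a gene held at least 10 counts in each library, the median SD was 17.1 points for 124 clustered and 16.8 for 815 wider cartilage genes, and 6.87 for 206 clustered and 8.05 for 1993 wider synovium genes. Leaving out any one library moved the median SD no further than 21.6 to 24.5 in cartilage and 6.64 to 7.19 in synovium, an alternative added after the data were seen. Duplicate reads, for which no molecular identifiers are mentioned, would add to this spread, and their part was not tested.

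**Figure D2:**
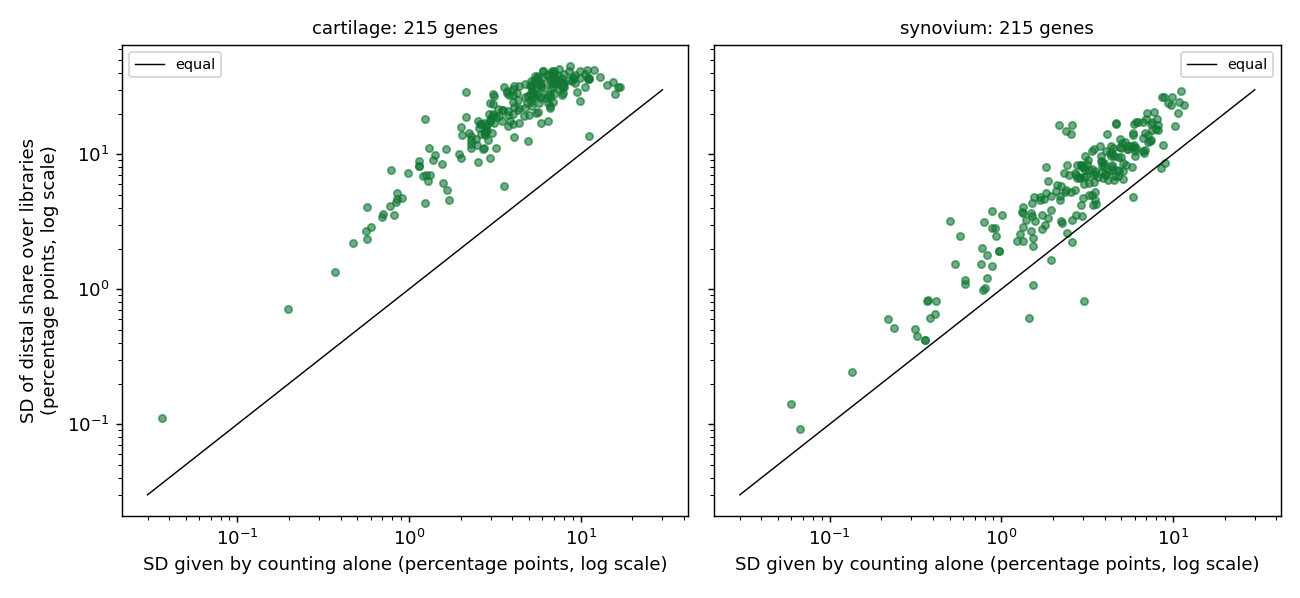
SD of each gene's distal share over libraries (vertical axis) against the SD that counting alone gives (horizontal axis), both in percentage points on log scales, 1 point per gene, 215 genes in each tissue; the line marks equality. Most cartilage genes lie far above the line, and synovium genes lie closer to it.

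The most variable genes, taken from those that held 100 counts or more in each library, show what this spread looks like. In cartilage, ENSECAG00000012750 (chr16:4788651-4789039, minus strand) had distal shares from 24.5% to 91.5% in young libraries (median 71.7%) and from 1.67% to 100% in old ones (median 58.5%). ENSECAG00000023980 (chr11:20520135-20520619, plus strand) ranged from 17.3% to 100% in young and from 0% to 48.6% in old libraries. Both genes had a site overlapped on the opposite strand, with identical counts only in ENSECAG00000023980. ENSECAG00000007999 (chr1:187646769-187647177, minus strand) ranged from 41.8% to 100% in young and 46.8% to 90.2% in old libraries.

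In synovium the most variable were ENSECAG00000020944, ENSECAG00000040744 and ENSECAG00000009246. ENSECAG00000020944 (chr27:25047489-25047953, plus strand) had distal shares of 81.7%, 67.2%, 46.4%, 53.4% and 74.5% in the young and 44.2%, 31.5%, 38.7%, 42.1% and 62.4% in the old libraries. ENSECAG00000040744 (chr10:7189611-7189867, plus strand) had 91.2%, 70.9%, 65.8%, 71.2% and 83.5% in young and 61.5%, 30.5%, 62.6%, 52.9% and 69.0% in old libraries, and its proximal site's counts are the same as those of an opposite-strand site of ENSECAG00000017892. In both genes the mean of the old libraries was lower, and 1 old library or more lay within the young range. ENSECAG00000009246 (chr14:5006908-5007199, plus strand) had 58.7%, 19.8%, 25.2%, 31.0% and 57.0% in young and 57.1%, 33.5%, 42.4%, 31.0% and 33.8% in old libraries, with means of 38.3% and 39.5% and ranges that overlapped. The counts of its proximal site, too, are the same in every library as those of an opposite-strand site, of ENSECAG00000003238.

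Whether use of the clustered ends differs with age was asked first over all clusters together. The median distal share of a library was 42.7% ± 2.11 (SD, n = 6) in young cartilage, from 40.0% to 45.7%, and 41.5% ± 3.78 (SD, n = 6) in old cartilage, from 36.3% to 46.3%. The difference, old minus young, was -1.24 percentage points, smaller than either SD. In synovium the young libraries had 51.1% ± 1.49 (SD, n = 5), from 48.9% to 53.0%, and the old ones 53.6% ± 1.50 (SD, n = 5), from 51.6% to 55.7%, a difference of 2.48 points with ranges that overlapped. No p is given, because the genes were chosen from these counts. The direction in synovium rested on the median: the mean over genes gave -0.229 points, and 115 of the 215 genes were lower in old libraries against 100 higher. In cartilage 110 were lower and 105 higher.

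**Figure D3:**
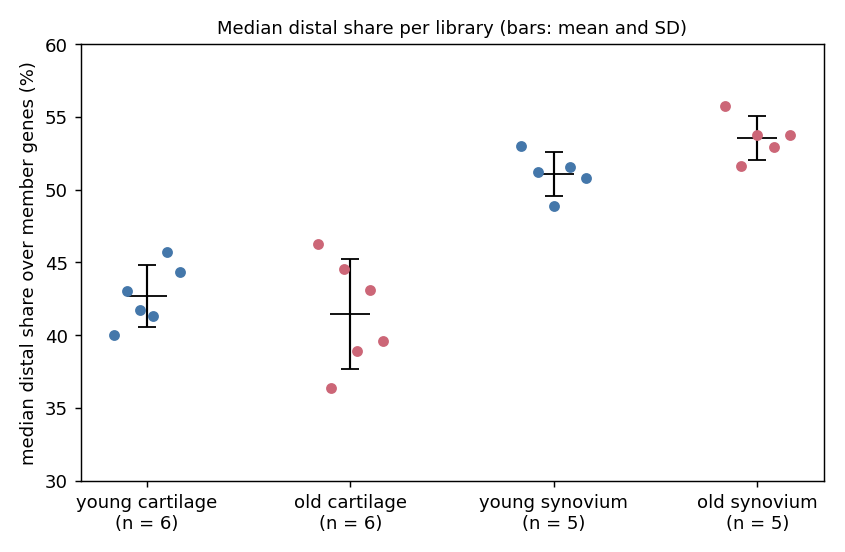
Median distal share over the 215 clustered genes of each tissue (percent, vertical axis), 1 point per library by group, with the mean and SD of each group as bars. The young and old points overlap in both tissues. The synovium libraries lie above those of cartilage, but each tissue has its own gene list, and the lists share only 59 genes. Over the 52 shared genes whose sites could be joined between the tissues, the median distal share was 45.9% in cartilage and 44.6% in synovium. Of these genes, 31 were higher in cartilage and 21 lower.

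Site by site, no clustered end passed the test for age. The test was edgeR's diffSpliceDGE, which compares a site with its gene as a whole, the site included. In cartilage 0 of 434 member sites reached an adjusted p of 0.05. Unadjusted, 1 had a p under 0.05, with lower use in old. Of the 8369 sites tested, 0% and 0.179% did (0.0358% higher, 0.143% lower). In synovium 0 of 431 member sites reached it and 0 had an unadjusted p under 0.05, where 0% and 1.38% of 16717 sites tested did (0.275% higher, 1.11% lower). With limma's diffSplice the counts were also 0 and 0 adjusted, where 0% of all sites were called in either tissue. By limma, an unadjusted p under 0.05 was found at 23 member sites (5.30%) in cartilage, where 4.73% of all sites had one. In synovium 16 (3.71%) had one, where 4.64% of all sites did. Over all sites edgeR gave such a p far less often than limma, 0.179% against 4.73% in cartilage and 1.38% against 4.64% in synovium. The calls of 0 therefore do not show that use is the same at both ages.

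The 1 cartilage site with an unadjusted p under 0.05 was the proximal end of ENSECAG00000009572 (chr7:3416205-3416378, plus strand). It held 45, 65, 70, 65, 52 and 56 counts in the 6 young libraries and 0, 0, 8, 0, 0 and 0 in the old. The distal end of the gene (chr7:3416495-3416617) held 27, 40, 49, 69, 12 and 20 counts in the young and 62, 14, 82, 23, 29 and 88 in the old. Only the proximal end separated the ages, and it was the 1 member site that passed 10 counts in at least 6 libraries through the young group alone. Membership of this gene therefore rested on the young libraries, which fixes part of the difference between the ages, and its values are a description that supports no age effect.

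As a share of the 2 sites, the proximal end of ENSECAG00000009572 took 64.4% ± 11.5 (SD, n = 6) in young and 1.48% ± 3.63 (SD, n = 6) in old cartilage, with no overlap. The log2 change in its use, old minus young, was -3.11, with an adjusted p of 1.00 by edgeR, and its adjusted p ran from 0.185 to 1.00 over the alternatives. The 2 clustered sites held 63.1% of the gene's cartilage counts, and its other listed sites did not enter the share. In synovium the matching proximal site (chr7:3416187-3416321) held 2, 4, 0, 1 and 1 counts in young and 0, 2, 1, 2 and 3 in old libraries, and was not kept. The distal one there (chr7:3416478-3416627) held 57 to 134 counts, so that both ages of synovium were low at the proximal end, as was old cartilage.

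ENSECAG00000023954 came next in cartilage. Its distal site (chr5:42889588-42889696, plus strand) had 7.04% of counts at the lowest, 29.4% at the median and 51.5% at the highest in young libraries and 0%, 4.64% and 19.5% in old ones. The ranges overlapped, the log2 change in use was -1.57, and the adjusted p by edgeR was 1.00. An opposite-strand site of ENSECAG00000018141 covered its whole proximal site. Their totals were nearly the same, 2385 and 2379 counts, so the gene behind these reads cannot be told.

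In synovium the member site with the lowest p was the distal end of ENSECAG00000022038 (chr4:49347384-49347497, minus strand). It took 13.3%, 21.1%, 12.2%, 13.7% and 6.13% of counts in the young and 0.445%, 10.8%, 0%, 8.97% and 9.97% in the old libraries, a log2 change in use of -1.01 with an adjusted p of 1.00 by edgeR. The young library at 6.13% lay within the old range. The proximal end of ENSECAG00000020944 (chr27:25047489-25047663) followed, with 35.4% ± 14.6 (SD, n = 5) in young and 56.2% ± 11.5 (SD, n = 5) in the old and a log2 change in use of 0.44 (adjusted p = 1.00, edgeR).

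Genes whose distal shares did not overlap between ages were few. Of the members that held 10 counts or more in each library, 1 of 128 in cartilage (0.781%) was higher in all old libraries, where 0.101% of 1978 genes were, and 0 were lower, where 0.152% were. The 1 gene was ENSECAG00000009572, which was admitted through the young libraries alone; without it the count was 0 of 127. In synovium 2 of 207 (0.966%) were higher in all old libraries, where 0.206% of 4863 genes were, and 0 were lower, where 0.452% were. ENSECAG00000009256 (chromosome 2, plus strand) had distal shares of 72.6%, 60.3%, 74.1%, 69.2% and 75.9% in young and 77.5%, 79.4%, 79.7%, 84.9% and 81.9% in old libraries. ENSECAG00000022543, on the same chromosome and strand, had 81.5%, 92.0%, 92.6%, 93.6% and 91.7% in young and 95.0%, 100%, 96.5%, 96.4% and 98.5% in old libraries. These synovium genes were singled out after their values were seen, and no site of either reached an adjusted p of 0.05.

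The level of the clustered genes was compared between ages next, on counts summed over all sites of a gene. In such tissue RNA, fewer cells of a type and less RNA per cell cannot be told apart. In cartilage 0 of 215 genes reached an adjusted p of 0.05 with edgeR's quasi-likelihood test and 6 had an unadjusted p under 0.05, all higher in old, where 0% and 3.09% of 8752 genes tested did (1.89% higher, 1.2% lower). DESeq2 called 0 of the 215 (0.0457% of all genes), with 9 (4.19%) at an unadjusted p under 0.05, where 4.34% of all genes had one. The median log2 difference, old minus young, was 0.11 over the clustered genes and 0.00 over all genes; scaling by library size alone put these at 0.00 and -0.12.

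ENSECAG00000020535 (chr6:76025833-76026317, plus strand) had the lowest p in cartilage. It had 159 CPM at the lowest, 345 at the median and 469 at the highest in young libraries, and 313, 672 and 1005 in old ones. The groups overlapped through 1 old library at 313 CPM, with the other old libraries above all of the young. The log2 difference was 1.02 (SE 0.29), with an adjusted p of 1.00 by edgeR (0.0942 to 1.00 over the alternatives). The counts of its proximal site (chr6:76025833-76025952), which held most of its reads, are the same in every library as those of an opposite-strand site of ENSECAG00000015175, so the gene behind the difference cannot be told from the table.

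ENSECAG00000008351 (chr1:162876194-162876476, minus strand) had 113 CPM at the lowest, 172 at the median and 269 at the highest in young and 210, 327 and 482 in old cartilage libraries. The ranges overlapped, with a log2 difference of 0.83 (SE 0.29) and an adjusted p of 1.00 by edgeR.

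In synovium 0 of 215 genes reached an adjusted p of 0.05 with edgeR and 17 had an unadjusted p under 0.05, 9 higher and 8 lower in old, where 0% and 6.91% of 11370 genes tested did (2.57% higher, 4.34% lower). DESeq2 called 0 of the 215 (0.334% of all genes), with 22 (10.2%) at an unadjusted p under 0.05, where 7.92% of all genes had one. When size factors from DESeq2 replaced TMM scaling, 15 were higher and 3 lower (4.27% and 2.4% of all genes). The split also turned on single libraries. It was 18 higher and 2 lower without old synovium 2, where 570 and 616 of all 11370 genes were. Without young synovium 2 it was 16 and 5 (457 and 272 of all genes), and without young synovium 1 it was 8 and 1 (349 and 121). Without young synovium 5 it was 6 and 3 (198 and 267), and without old synovium 1 it was 3 and 5 (147 and 296). The median log2 difference was -0.05 over the clustered genes and -0.05 over all genes. With DESeq2 size factors these were 0.06 and 0.06, so the sign turned on the scaling.

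ENSECAG00000000968 (chr12:36854954-36855298, plus strand) had 118, 27.8, 20.5, 13.7 and 98.4 CPM in the young and 8.57, 11.8, 27.4, 21.3 and 20.3 CPM in the old synovium libraries. The other 2 young libraries lay within the old range, and 3 lay above it, 1 of them only just. The log2 difference was -1.64 (SE 0.56), with an adjusted p of 0.647 by edgeR. ENSECAG00000012104 (chr18:33552776-33553230, minus strand) had 10.3, 20.6, 17.8, 63.6 and 12.9 CPM in young and 293, 49.4, 281, 17.0 and 15.7 CPM in old libraries. Here 2 old libraries stood far above the rest and the others lay within the young range, with a log2 difference of 2.39 (SE 0.82) and an adjusted p of 0.647 by edgeR. The distal shares of these 2 genes were 17.4% and 29.6% on average in young and 14.1% and 26.2% in old libraries.

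Use of the same close ends in the 2 tissues was compared in 52 of the 59 shared genes, those whose sites could be joined between the tables by an overlap of at least 0.5 of both intervals (104 sites). The tables were made separately, only 291 of 7144 joined kept sites had identical intervals, and tissue cannot be told apart from the table it came in. Preferences were mostly alike: by mean share the same site was the major one in 43 of 52 genes. The mean distal share differed by under 10 points in 29 genes, was higher in cartilage in 31 and lower in 21, with a median difference of 1.13 points (cartilage minus synovium) and a range from -60.6 to 42.4. Across the 52 genes, which share libraries, Pearson's r between the tissues' mean shares was 0.854 and Spearman's rho 0.810, given as a description.

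**Figure D4:**
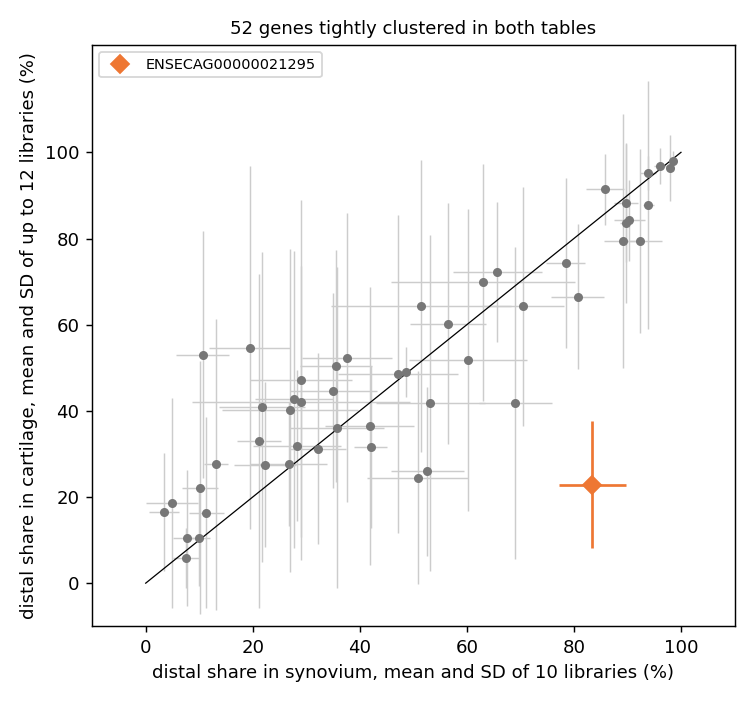
Mean distal share in cartilage (percent, vertical axis, SD over up to 12 libraries) against that in synovium (percent, horizontal axis, SD over 10 libraries) for the 52 genes clustered in both tissues; the line marks equal shares and bars are SDs. ENSECAG00000021295, marked, lies farthest from the line, at 22.9% in cartilage and 83.5% in synovium.

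With edgeR's diffSpliceDGE over all 22 libraries and age in the model, 1 of 104 member sites reached an adjusted p of 0.05 (0.519% of 3664 sites tested did), and 6 had an unadjusted p under 0.05 (7.51% did), 5 of them with higher use in cartilage (5.46%) and 1 with lower (2.05%). With limma 2 of 104 were called (1.92%), where 6.6% of all sites were. The site called by edgeR was the proximal end of ENSECAG00000021295 (chr6:75825625-75825749 in cartilage and 75825624-75825750 in synovium, minus strand). The distal share of this gene was 1.38% at the lowest, 22.3% at the median and 31.0% at the highest in young cartilage and 0%, 32.1% and 43.2% in old cartilage. It was 82.6%, 78.9%, 90.5%, 89.4% and 83.1% in the young synovium libraries and 85.7%, 82.8%, 91.4%, 71.1% and 79.1% in the old. All 12 cartilage libraries lay below all 10 synovium libraries at both ages, and this was the only 1 of the 52 genes without overlap.

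The proximal share of ENSECAG00000021295 was 77.1% ± 14.7 (SD, n = 12) in cartilage and 16.5% ± 6.22 (SD, n = 10) in synovium. The log2 difference in use of the proximal end, cartilage minus synovium, was 1.54 with an adjusted p of 0.00704 by edgeR, and for the distal end it was -1.22 with an adjusted p of 0.108. The call on the proximal end held when any one library was left out (adjusted p from 0.0036 to 0.0235). Among the settings that lost it were the young libraries alone (0.125) and the old libraries alone (1.00), while limma gave 5.46e-05 for both ends. No opposite-strand site overlapped either end. The distal interval differed between the tables, chr6:75825440-75825548 in cartilage and the wider chr6:75825350-75825551 in synovium, so the synovium site could hold reads that the cartilage one could not. The part of the wider interval in the difference was not tested. Within a tissue the gene's distal share did not separate the ages.

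**Figure D5:**
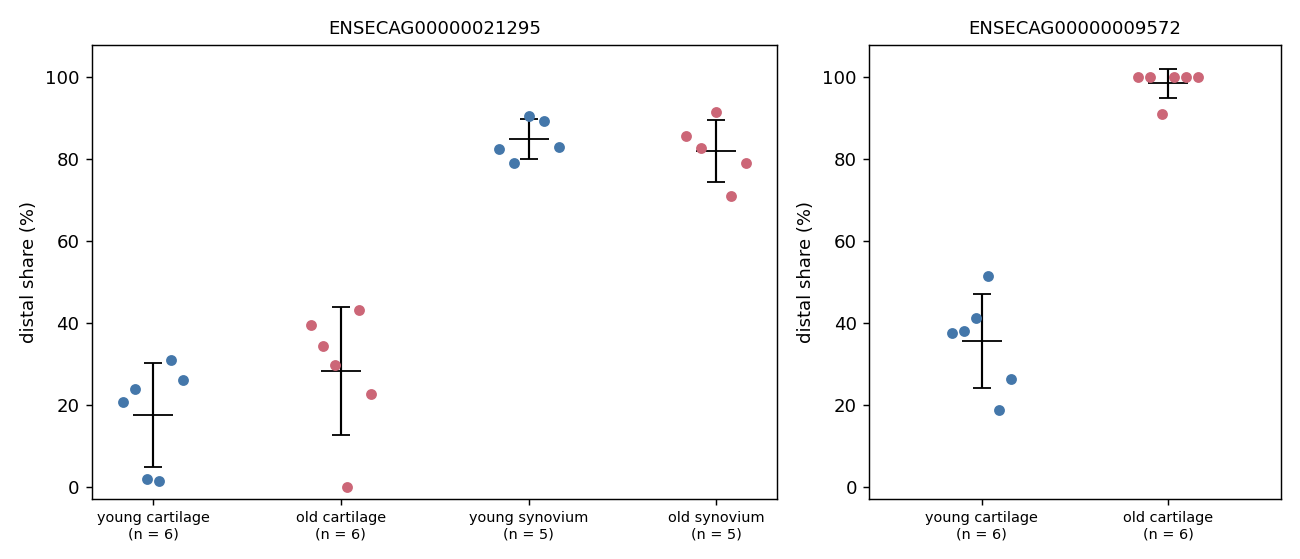
Distal share (percent, vertical axis) in each library of ENSECAG00000021295 in the 4 groups of tissue and age, and of ENSECAG00000009572 in young and old cartilage; each point is 1 library. The first gene lies at 0% to 43.2% in cartilage and 71.1% to 91.4% in synovium, and the second, admitted to the list through the young libraries alone, at 18.8% to 51.5% in young and 91.1% to 100% in old cartilage.

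The other 4 genes with an unadjusted p under 0.05 were ENSECAG00000035662, ENSECAG00000010441, ENSECAG00000038285 and ENSECAG00000022585, with adjusted p from 0.431 to 0.573 by edgeR. The distal end of ENSECAG00000010441 had the largest difference in the other direction, 53.1% ± 28.6 (SD, n = 8 libraries with counts) in cartilage and 10.7% ± 4.96 (SD, n = 10) in synovium. Its cartilage values ran from 0% to 100% and covered the synovium range of 3.06% to 18.1%. The distal end of ENSECAG00000035662 (chromosome 31) took 16.6% ± 13.7 (SD, n = 12) in cartilage and 3.44% ± 2.85 (SD, n = 10) in synovium, with ranges of 0% to 49.5% and 0.248% to 8.58% that overlapped.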

How the data were processed

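Sequencing was of QuantSeq-Reverse 3′ end libraries of total RNA, per the labels' protocols. Each tissue has its own table, in which the authors deposited whole-number, unnormalized counts for every site, per the file headers; the build is EquCab3.0 per the submitters' processing notes, and the aligner, the site caller and the use of strand are not given in the sources used here. Groups came from the titles, and 0 sample columns were unused. The clustered genes, the rules for named genes and the gene lists were chosen with earlier results of these data known; the lists need symbols, and 0 identifiers matched the gene table given, so no list or marker was read.

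All sites and genes of a table were fitted together, with Benjamini-Hochberg adjustment over the whole table at 0.05, in edgeR 4.0.16 (R 4.3.3; TMM, robust quasi-likelihood; filterByExpr with minimum count 10 for genes) and age as the only term. Site use was tested with diffSpliceDGE. A log2 change of a site's use by edgeR is relative to its gene as a whole, the site included. In limma's diffSplice it is relative to the gene's other sites. CPM are TMM-scaled and computed here. Counting error of a share is the binomial SD averaged over libraries; it covers counting error only. limma 3.58.1 and DESeq2 1.42.0 were alternatives, with other scalings, filters, spans and each library left out. Named genes were those past the threshold, otherwise the 2 lowest p per test, and by rule the highest CPM, most sites, spans nearest 500 nt and highest or lowest SD of the share (at least 100 counts in every library). The code was tested on simulated data with large changes and little spread between libraries, which does not measure the power of the tests in these data. Python 3.11.15, NumPy 2.4.6, pandas 2.3.3 and Matplotlib 3.10.9 were used.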

Additional observations from a re-analysis of the deposited data

Results flagged for a closer look

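Of 124 groups of 5 or 6 values examined (library summaries of the clustered genes, and the CPM and distal shares of the named genes), 11 held a library far from the rest of its group by Dixon's criterion, where chance gives about 6.2. Some of these genes were picked for the SD of their share or their p for age, so 6.2 is a rough guide only. The library old cartilage 2 had 51 of the 215 clustered cartilage genes at 0 counts, with the nearest old library at 9. It also gave ENSECAG00000023980 a distal share of 0%, with the nearest old library at 30.6%. The same gene had a distal share of 100% in young cartilage 4, with the nearest young library at 38.3%.

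Further distal shares stood apart in cartilage. ENSECAG00000029282 had 73.6% in young cartilage 5, with the nearest at 84.1%. ENSECAG00000004107 had 0.350% in old cartilage 3, with the nearest at 0.0802%. ENSECAG00000009572 had 91.1% in old cartilage 3, where the other old libraries were at 100%.

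Gene levels stood apart in 5 groups. ENSECAG00000004107 reached 5939 CPM in young cartilage 5, with the nearest at 3578, and ENSECAG00000023868 reached 719 CPM in young cartilage 2, with the nearest at 457. In synovium, ENSECAG00000014678 had 568 CPM in young synovium 4 (nearest 305), and the same library had 63.6 CPM of ENSECAG00000012104 (nearest 20.6). ENSECAG00000010710 had 820 CPM in old synovium 1 (nearest 439).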

How the results depend on the processing

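The counts of 0 member sites and 0 member genes past an adjusted p of 0.05 for age held in both tissues under every alternative run, which were other scalings and filters, limma or DESeq2, the replicate block and leaving out each library. Member sites with an unadjusted p under 0.05 ran from 1 to 23 in cartilage and 0 to 16 in synovium. The highest were with limma, where 396 of all 8369 and 775 of all 16717 sites had one. In the edgeR test given above, with 1 and 0 members, 15 and 231 of all sites did. Member genes with one ran from 4 to 9 in cartilage and 8 to 23 in synovium. In cartilage it was 4 without old cartilage 1 or 3 (262 and 243 of all 8752 genes). It was 9 with DESeq2's test (380) and without old cartilage 2 or 6 (341 and 278). In synovium it was 23 without young synovium 3 (1019 of all 11370 genes). Leaving out old synovium 1, young synovium 1 or young synovium 5 put the synovium genes at 8, 9 and 9 against 17. Over all 11370 genes those settings gave 443, 470 and 465 against 786. For the tissue comparison, 1 site was called when any library was left out, 2 with limma (242 of all 3664), and 0 with the young or the old libraries alone (11 and 5 of all), with at least 10 counts in every library (4 member sites tested; 32 of 252 called) and with the replicate block (18 of all). The labels give groups the same replicate numbers, but not every same-numbered pair deviated together (r of deviations -0.0582 to 0.0735 in cartilage, -0.103 to 0.346 in synovium and -0.0176 to 0.192 between tissues), so the numbers were not taken to pair them. With the block, the proximal end of ENSECAG00000021295 had a log2 difference of 1.61 and an adjusted p of 0.159 (edgeR, with 5.46e-05 to 1.00 over its alternatives). Age calls under the block stayed at 0. There, 3 member sites in cartilage (0.691%) and 4 in synovium (0.928%) had an unadjusted p under 0.05 by edgeR. Of all sites tested, 1.12% and 1.67% had one. The number of clustered genes fell to 37 in cartilage and 31 in synovium with a span of at most 300 nt, and to 43 in cartilage with at least 10 counts in every library; 0 genes had a span of at most 200 nt, so that alternative gave no value. The difference in median distal share ran from -2.20 to -0.216 points in cartilage and from 1.93 to 2.96 in synovium with a library left out. It reversed in synovium to -3.77 at a span of at most 300 nt and to -0.229 as a mean over genes, and was 1.40 in cartilage at 300 nt, within the SD. Without genes overlapped on the opposite strand, 184 and 175 genes were left and 0 were called for age, an alternative added after the data were seen. The causes of these shifts were not tested. In cartilage 110 of 434 member sites had 10 counts in every library, against 301 of 431 in synovium, and shares at the other sites rest on few counts in some libraries.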
